A study of Mus musculus with 12 samples.

Results

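The antibody genes of the mouse colon and the receptor that carries IgA into the gut lumen were followed in 12 colon libraries, in mice with and without acute colitis and with and without STING in myeloid cells. Their members were the rows that the deposited table annotates as immunoglobulin variable (V), diversity (D), joining (J) or constant (C) genes and that held at least 50 counts summed over all 12 libraries, together with Jchain and Pigr. These were 199 of the 54532 rows: 175 V genes (88 heavy chain Ighv, 84 kappa Igkv and 3 lambda Iglv), 12 constant genes, 10 J segments, Jchain and Pigr. No D segment reached the minimum. The summed counts that chose the members came from the same libraries that are compared here, without reference to group: 172 members had at least 50 counts in the untreated libraries alone, and 56 members drew more than 50% of their counts from 1 library, which for 47 of them was colitic Tmem173fl/fl replicate 2. Just inside the minimum were Ighv2-6-8 with 51 counts and Ighv8-4 with 52, and just outside it Ighv1-56 with 49 and Igkv8-16 with 47.

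The mice were 6 to 8 weeks old, of C57BL/6N background, and all carried floxed alleles of Tmem173, the gene of the DNA sensing adaptor STING. Tmem173fl/fl mice without Cre were the reference genotype. Tmem173iΔmye mice also carried a tamoxifen-inducible Cre under the Lyz2 promoter, which is active in myeloid cells such as macrophages, monocytes and neutrophils; the libraries were made from whole colon, where epithelial cells, lymphocytes and plasma cells are not targets of this Cre. Both genotypes were given 5 tamoxifen injections. Within each genotype 3 mice drank distilled water (untreated) and 3 drank 2.5 to 3% dextran sulfate sodium (DSS), which injures the colonic epithelium, for 7 days followed by 1 day of water (colitic). Replicates were numbered 1 to 3 in 3 groups, and 1, 2 and 5 in colitic Tmem173iΔmye mice.

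An antibody is made of heavy and light chains, each with a variable region joined from V, (D) and J segments and a constant region. The constant gene sets the isotype: Igha encodes the heavy chain of IgA, the main antibody of the gut, Ighm and Ighd those of IgM and IgD on unswitched B cells, and the Ighg genes those of the IgG subclasses, which dominate in serum. Plasma cells of the lamina propria secrete IgA as dimers held together by the J chain (Jchain), and the polymeric immunoglobulin receptor of epithelial cells (Pigr) binds these dimers, carries them across the cell and releases them into the lumen.

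The heavy chain isotypes that the results turn on differ from the beginning of their constant genes. The 60 bases at the 5′ end of 6 of them, read from GRCm38, show how far the counting of reads could tell them apart; all lie on the minus strand of chromosome 12, with Igha at chr12:113254830-113260236, Ighg2c at chr12:113285325-113288932, Ighg2b at chr12:113302965-113307933, Ighg1 at chr12:113325240-113330523, Ighg3 at chr12:113356224-113361232 and Ighm at chr12:113418558-113422730.
Igha: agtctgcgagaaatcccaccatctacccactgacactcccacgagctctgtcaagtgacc
Ighg1: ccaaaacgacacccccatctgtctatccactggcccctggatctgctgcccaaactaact
Ighg2b: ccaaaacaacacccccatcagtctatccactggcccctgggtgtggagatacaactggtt
Ighg2c: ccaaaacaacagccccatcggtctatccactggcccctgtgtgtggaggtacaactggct
Ighg3: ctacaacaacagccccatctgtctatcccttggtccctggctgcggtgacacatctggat
Ighm: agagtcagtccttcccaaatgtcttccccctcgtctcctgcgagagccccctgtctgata
Over these bases Ighg2b and Ighg2c were identical at 55 positions (91.7%), Ighg1 and Ighg2b at 78.3%, and Igha and the IgG genes at 38.3 to 46.7%. Over whole exons, 6.01% of the 50-base windows of Ighg2c occurred in another immunoglobulin gene of the table, against 4.33% of those of Ighg2b and none of those of Igha, Igkc or Ighm. Reads of the heavy chain constant genes were thus largely their own.

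The V genes are far more alike. The last 60 annotated bases of 6 of the most abundant ones are shown with the codon of the conserved cysteine, after which the joined segments form the most variable loop of the antibody, in capitals; Ighv1-81 lies at chr12:115920279-115920712, Ighv14-4 at chr12:114176438-114176867 and Ighv1-26 at chr12:114788372-114788805, all on the minus strand, with Igkv4-59 at chr6:69438218-69438757 on the minus strand, Igkv3-4 at chr6:70671788-70672377 on the plus strand and Iglv1 at chr16:19085017-19085500 on the minus strand.
Ighv1-81: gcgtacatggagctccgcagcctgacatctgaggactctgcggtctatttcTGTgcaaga
Ighv14-4: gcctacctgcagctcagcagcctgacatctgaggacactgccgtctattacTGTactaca
Ighv1-26: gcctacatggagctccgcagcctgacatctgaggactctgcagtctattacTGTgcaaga
Igkv4-59: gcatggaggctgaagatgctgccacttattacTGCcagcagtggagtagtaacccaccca
Igkv3-4: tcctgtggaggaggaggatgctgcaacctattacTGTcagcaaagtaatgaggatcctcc
Iglv1: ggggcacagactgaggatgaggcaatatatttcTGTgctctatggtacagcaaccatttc
A median of 23.5% of a V gene's 50-base windows occurred in another immunoglobulin gene (highest 92.5%), and in 24 of 175 V genes at least 50% did. Ighv1-81 shared 11.6% of its windows, Ighv14-4 21.2%, Iglv1 22.2%, Igkv3-4 34.1%, Ighv1-26 49.0% and Igkv4-59 74.3%. The counts of V genes with much shared sequence are uncertain, since the counting could split or drop their reads, and each V gene also collects mutated and rearranged copies.

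The J segments supply the end of the variable region. Ighj3, at chr12:113429085-113429132 on the minus strand, and Igkj1 are shown with the codons of the motif that begins the fourth framework region of the chain in capitals (the beginning of Trp-Gly in Ighj3, of Phe-Gly in Igkj1).
Ighj3: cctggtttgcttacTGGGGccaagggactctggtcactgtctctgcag
Igkj1: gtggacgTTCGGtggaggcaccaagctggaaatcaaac

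The libraries held 13823237 to 18718915 counts assigned to genes. Some libraries stood apart in ways that the groups do not explain. Xist was above 100 CPM in 3 libraries (untreated replicate 3 of both genotypes and colitic Tmem173iΔmye replicate 5). Genes of the exocrine pancreas, which lies beside the colon, summed to over 1000 CPM in 5 libraries, among them colitic Tmem173fl/fl replicates 1 and 2 (9562 and 4952 CPM) and colitic Tmem173iΔmye replicate 1 (12200 CPM). These 3 were also the colitic libraries with the most immunoglobulin RNA, and the part of the pancreas RNA in the results below was not tested. In the colitic groups Tmem173 itself did not differ detectably between genotypes (log2 fold change -0.28, edgeR adjusted p = 0.602), and myeloid cells are only a part of the colon. In whole colon RNA, fewer cells of a type and less RNA per cell cannot be told apart. Nothing in the labels says more than that the samples are separate mice of a group, so p-values measure the spread between these mice.

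Immunoglobulin genes took a larger share of the counts in colitic Tmem173fl/fl mice than in their untreated controls, while colitic Tmem173iΔmye mice ranged on both sides of theirs. In untreated Tmem173fl/fl mice 0.597, 0.398 and 0.450% of all counts fell on immunoglobulin genes (Jchain and Pigr not included). Untreated Tmem173iΔmye mice had 0.364, 0.395 and 0.360%. In colitic Tmem173fl/fl mice the shares were 1.19, 2.88 and 0.625%, all above the highest untreated library. In colitic Tmem173iΔmye mice they were 1.61, 0.257 and 0.141%: replicate 1 lay within the range of the colitic Tmem173fl/fl mice and replicates 2 and 5 below every untreated library. The group means were 0.482 ± 0.103%, 0.373 ± 0.0192%, 1.56 ± 1.17% and 0.670 ± 0.818% (SD, n = 3 each).

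Levels of different genes are compared per length, in FPKM (fragments per kilobase of gene length, scaled to depth), and levels of the same gene between libraries in CPM (counts scaled to depth with TMM factors). By FPKM Igkc, the constant gene of the kappa light chain, was the most abundant member in 11 of the 12 libraries, at 1634 to 3386 FPKM in untreated mice. Pigr was the most abundant in the remaining one, colitic Tmem173iΔmye replicate 5, at 1129 FPKM against 785 FPKM for Igkc. In untreated mice Pigr (813 to 1112 FPKM) lay above Igha (518 to 863 FPKM), and Jchain (159 to 248 FPKM) lay below it. Among the IgG genes Ighg2c, the C57BL/6 counterpart of IgG2a, had the highest FPKM in all 12 libraries.

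In Tmem173fl/fl mice, the IgG heavy chains were the constant genes with the largest rises in colitis. Markers of other cells moved with them: all 10 neutrophil genes were called higher (46.7 to 106 CPM summed in untreated and 471 to 786 CPM in colitic mice), and all 5 erythroid genes (4.07 to 6.59 and 152 to 323 CPM). None of these markers was at 0 in all libraries, and the part of these cells and of blood in the results was not tested. The question here was how the antibody genes respond to colitis when STING is intact. Genes were called at an adjusted p under 0.05 (Benjamini-Hochberg over all 24102 genes tested) and a log2 fold change of 1 or more in either direction. Of 198 members tested, 76 were called, where 22.5% of all genes tested were: 75 (37.9%) higher, against 14.9% of all genes, and 1, Pigr, lower, against 7.61%. The member left out by the filter on low values was Ighv8-4. The median log2 fold change was 1.62 over the members and 0.03 over all genes, and 179 members (90.4%) had a positive fold change, against 51.1% of all genes. For 52 members (26.3%) every colitic library lay above every untreated one, a share close to the 23.9% of all genes. Without untreated replicate 3, the one library with Xist in this comparison, 44 members (22.2%) were called, close to the 20.2% of all genes in that fit: 21.2% of members were higher, against 13.5% of all genes. Without those with pancreas RNA over 1000 CPM only colitic replicate 3 and untreated replicates 1 and 2 remained, so that the spread came from the untreated pair alone; 52 members were called there, 35 higher (17.7%, against 10.4% of all genes in that fit) and 17 lower (8.59%, against 5.82%), and 31 of them were among the 76.

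IgG3 is an antibody of responses to carbohydrate antigens. Ighg3 was at 6.06, 4.54 and 5.32 CPM in untreated and 70.0, 708 and 19.8 CPM in colitic Tmem173fl/fl mice, a mean 50.1 times the untreated mean. The colitic levels differed widely among themselves, yet each lay above all untreated ones, and the log2 fold change was 5.72 (SE 1.15, edgeR adjusted p = 0.00343). Without colitic replicate 2, which held the highest level, it was 3.13 and still called, below the 3.62 of Ighg1, so that the order of the subclasses turned with this library.

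Ighg1 was at 14.7, 4.33 and 1.94 CPM in untreated and 69.9, 171 and 94.6 CPM in colitic Tmem173fl/fl mice. Its groups did not overlap, and its log2 fold change was 4.09 (SE 0.63, adjusted p = 0.000709). Ighg2c, the most abundant IgG gene, was at 387, 180 and 107 CPM and at 1379, 4628 and 601 CPM. Again no colitic mouse fell into the untreated range, and the rise was 3.37 on the log2 scale (SE 0.72, adjusted p = 0.00462). Ighg2b was at 195, 66.5 and 53.8 CPM and at 530, 1903 and 246 CPM, also without overlap (3.16, SE 0.74, adjusted p = 0.00756). Without colitic replicate 2 these folds became 3.62 for Ighg1, 2.19 for Ighg2c and 1.93 for Ighg2b, all still called. With the spread between mice, no order among the 4 IgG genes was tested. Against untreated replicates 1 and 2, colitic replicate 3, the only colitic library without much pancreas RNA, gave 1.98 for Ighg3, 3.40 for Ighg1, 1.16 for Ighg2c and 0.99 for Ighg2b, of which the last was under the fold threshold. Igha had 0.07 there (edgeR adjusted p = 0.901).

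The heavy chain of IgA was not called. Igha was at 2371, 1626 and 1768 CPM in untreated and 3604, 5242 and 1989 CPM in colitic Tmem173fl/fl mice. Colitic replicate 3 lay within the untreated range, and the log2 fold change of 0.98 (SE 0.31, adjusted p = 0.0321) was under the fold threshold. Igha was called without untreated replicate 1 (1.16) and without colitic replicate 3 (1.25), and had 0.59 without colitic replicate 2, not called. Jchain was at 623, 410 and 638 CPM and at 576, 1030 and 336 CPM, with overlapping groups (0.29, adjusted p = 0.570). Ighm was at 129, 64.8 and 91.1 CPM and at 147, 310 and 49.9 CPM, its colitic mice spanning the untreated range on both sides (0.90, adjusted p = 0.208). Ighd had a log2 fold change of 0.34 (adjusted p = 0.635) and Ighe, the IgE heavy chain, stayed at or under 1.94 CPM in every library of the 4 groups.

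Of the light chains, 1 of 4 constant genes was called, beside 22.5% of all genes. Igkc was at 1855, 1233 and 1415 CPM in untreated and 2293, 5299 and 1216 CPM in colitic Tmem173fl/fl mice, with overlap and a log2 fold change of 1.04 (adjusted p = 0.0894). Iglc3, a lambda constant gene, was at 3.03, 2.10 and 1.75 CPM and at 9.48, 12.6 and 3.88 CPM, without overlap, and was called (2.0, SE 0.42, adjusted p = 0.00453), but not in colitic replicate 3 against untreated replicates 1 and 2 (0.68, adjusted p = 0.450). Iglc1 (1.79) and Iglc2 (1.37) were not called. The kappa share of light chain constant counts stayed between 91.8 and 97.9% in all 12 libraries. Of the 10 J segments, Igkj1 (2.51), Iglj1 (2.64), Igkj5 (2.35) and Ighj3 (1.85) were called higher, beside 14.9% of all genes, and none lower.

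**Figure D1:**
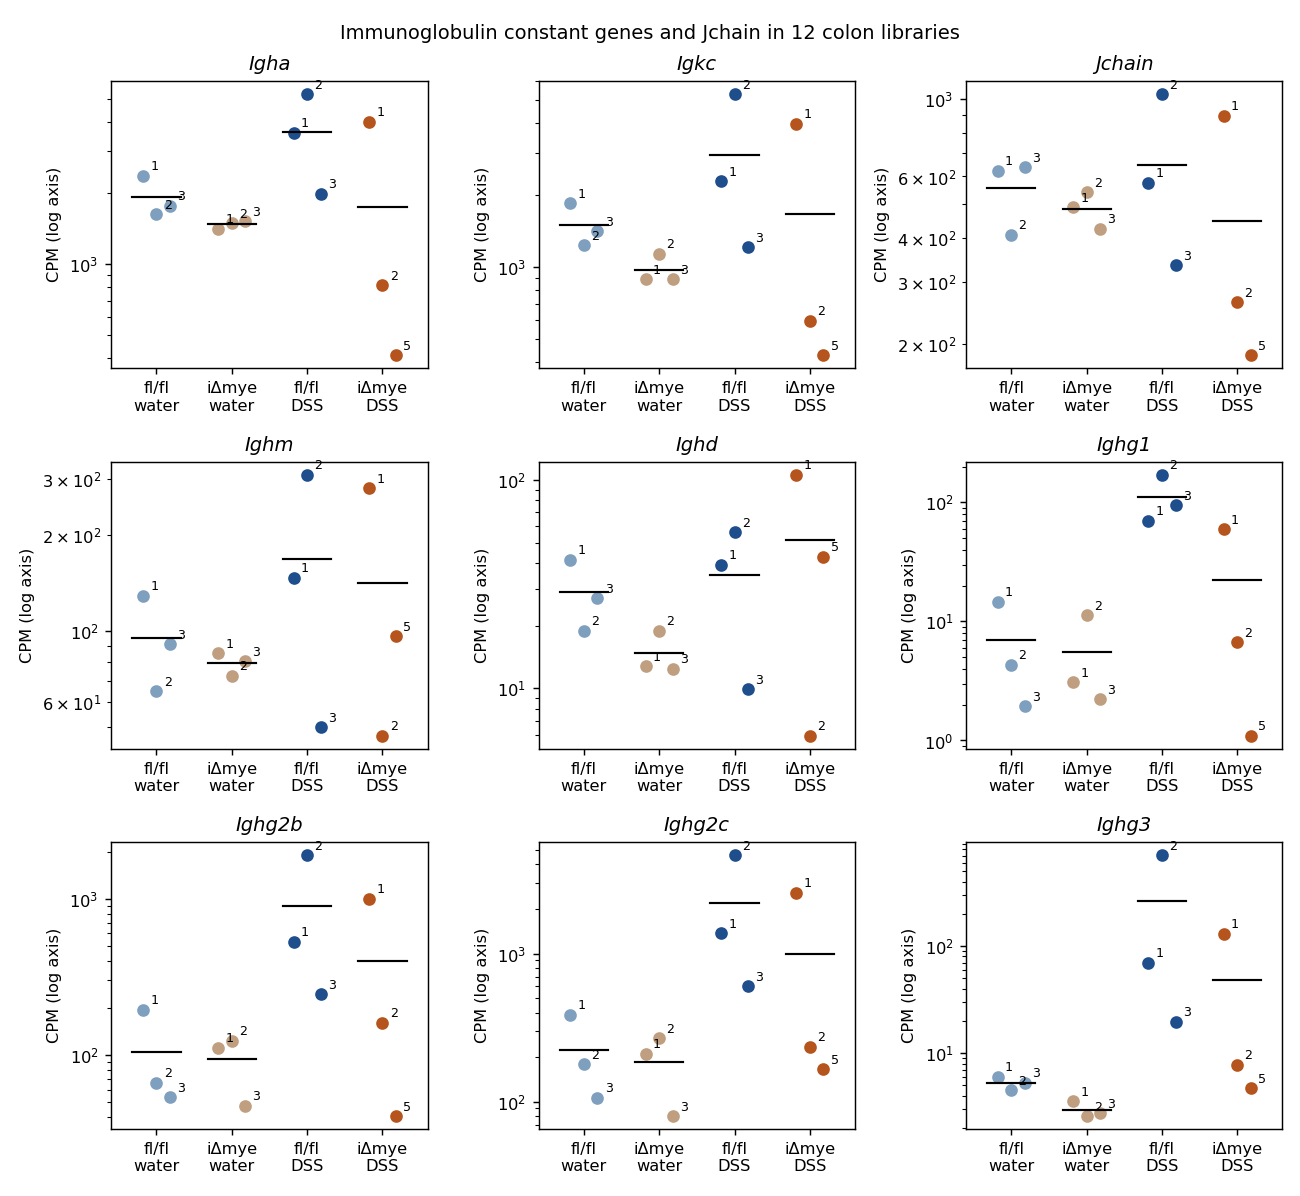
CPM of constant genes and Jchain (log axis) in each of the 12 libraries by group. Numbers are replicate numbers and horizontal bars are group means; the IgG genes of all 3 colitic Tmem173fl/fl libraries lie above those of their untreated controls, while colitic Tmem173iΔmye libraries spread over a wide range.

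The mixture of isotypes separated the colitic from the untreated libraries in both genotypes. Igha made up 75.4, 82.7 and 86.1% of heavy chain constant counts in untreated Tmem173fl/fl mice and 76.8, 74.9 and 87.1% in untreated Tmem173iΔmye mice. The Igha share was 61.7, 40.3 and 66.1% in colitic Tmem173fl/fl mice. It was 49.1, 63.7 and 54.0% in colitic Tmem173iΔmye mice, so that none of the 6 colitic libraries reached the lowest untreated share. The share of the 4 IgG genes went the other way, from 7.57 to 20.4% in the 6 untreated libraries to 27.8 to 56.9% in the 6 colitic ones. Per length, the ratio of Igha to summed IgG was 2.20 to 7.15 in untreated libraries and 0.432 to 1.26 in colitic ones. These shares are scores over the members and were not tested. A share does not tell which gene moved. In colitic Tmem173fl/fl replicates 1, 2 and 3 Igha was at 1.875, 2.73 and 1.035 times its untreated mean. Ighg2c was at 6.14, 20.6 and 2.68 times its own. In colitic Tmem173iΔmye replicates 1, 2 and 5 Igha was at 2.72, 0.552 and 0.279 times, and Ighg2c at 13.9, 1.265 and 0.890 times.

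The mean Igha share was 56.0 ± 13.8% in colitic Tmem173fl/fl and 55.6 ± 7.44% in colitic Tmem173iΔmye mice (SD, n = 3 each). Colitic Tmem173iΔmye replicate 5, the library with the least immunoglobulin RNA, had the highest share of unswitched isotypes, with 12.6% of heavy chain counts on Ighm and 5.61% on Ighd. The ratio of Jchain to Igha FPKM was 0.278, 0.267 and 0.383 in untreated Tmem173fl/fl mice and 0.169, 0.208 and 0.179 in colitic ones, without overlap. In Tmem173iΔmye mice it was 0.368, 0.385 and 0.296 and then 0.236, 0.342 and 0.478, with overlap.

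**Figure D2:**
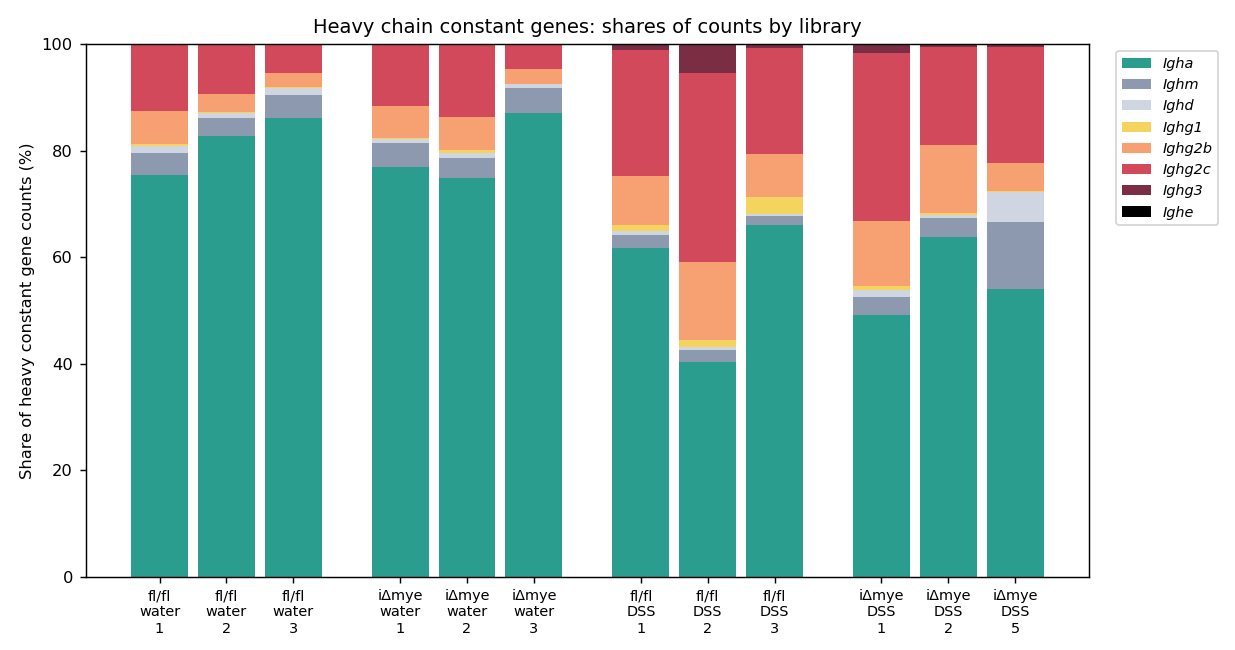
Share of heavy chain constant counts (percent) taken by each isotype in each library, grouped by genotype and treatment. IgA takes 74.9 to 87.1% in the untreated libraries and 40.3 to 66.1% in the colitic ones, where IgG takes 27.8 to 56.9%.

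V genes of all 3 loci were called higher in colitic Tmem173fl/fl mice. Of 174 V genes tested, 66 (37.9%) were called higher, against 14.9% of all genes, and none lower: 34 of 87 Ighv, 30 of 84 Igkv and 2 of 3 Iglv genes. Of the 25 V genes that reached 50 counts only with the colitic libraries 9 were called, and of the other 150, whose membership did not rest on colitis, 57 were. In 44 of the 174 (25.3%) every colitic library lay above every untreated one, a share near the 23.9% of all genes; 37 of these were among the 66. Summed over the V genes, the level was 1348, 983 and 1125 CPM in untreated and 2747, 6768 and 1607 CPM in colitic Tmem173fl/fl mice.

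Ighv14-4 was at 42.9, 36.8 and 32.9 CPM in untreated and 125, 223 and 51.5 CPM in colitic Tmem173fl/fl mice, without overlap, and was called (log2 fold change 1.90, adjusted p = 0.00526). Ighv1-81 was at 82.3, 47.5 and 70.4 CPM and at 110, 88.9 and 138 CPM, also without overlap, but its rise of 0.82 was under the fold threshold (adjusted p = 0.0168). Ighv1-26 was at 45.1, 21.9 and 15.3 CPM and at 73.2, 299 and 16.0 CPM, and its groups overlapped (2.32, adjusted p = 0.0510). Of these 3 abundant heavy chain genes, Ighv14-4 alone was called.

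Among the kappa genes, Igkv3-4 was at 1.82, 4.47 and 14.0 CPM in untreated and 81.6, 611 and 13.9 CPM in colitic Tmem173fl/fl mice, so that replicate 3 stayed within the untreated range (5.18, adjusted p = 0.00907). Igkv1-117 was at 102, 16.5 and 40.0 CPM and at 105, 160 and 162 CPM (1.5, adjusted p = 0.0422). Igkv4-59 was at 96.7, 96.3 and 68.1 CPM and at 105, 138 and 59.4 CPM, with overlap and no call (0.29, adjusted p = 0.451). Of the lambda genes, Iglv1 was at 43.9, 33.6 and 28.3 CPM and at 73.5, 376 and 42.8 CPM, with replicate 3 inside the untreated range (2.30, adjusted p = 0.0223). Iglv2 was called (2.40, adjusted p = 0.0199) and Iglv3 was not (1.67, adjusted p = 0.168).

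Of the 5 called V genes with the largest fitted rises, Igkv3-4 is described above and the other 4 had few or no counts without colitis; all 5 were highest in colitic replicate 2. Ighv1-62-3 had no count in any untreated Tmem173fl/fl library and 8, 46 and 9 counts in the colitic ones and it reached the minimum of 50 counts only through these, so that a high colitic level was a condition of its being a member. Ighv5-15 had 2, 0 and 0 counts and then 20, 186 and 79. Ighv1-62-2 had 1, 2 and 14 counts and then 94, 1465 and 13, and Igkv14-130 had 4, 1 and 4 and then 8, 425 and 4. Ighv1-62-2 and Ighv1-62-3 shared 91.8 and 69.4% of their windows with other genes, so their counts are uncertain.

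Libraries of one colitic group differed in the level of their V genes. Against the mean of their own untreated genotype (log2 ratio of CPM + 0.5), the median V gene was at 0.77, 1.59 and 0.11 in colitic Tmem173fl/fl replicates 1, 2 and 3. In colitic Tmem173iΔmye replicates 1, 2 and 5 it was at 1.41, -0.36 and -1.62. In Tmem173iΔmye replicate 1, 126 of 174 V genes lay above the highest of their 3 untreated libraries, against 37 in replicate 2 and 2 in replicate 5. In replicate 5, 135 V genes lay below the lowest untreated library and 42 had no count. These counts were made for V genes only, with no share of all genes beside them, and are not read as changes. By the median V gene, 1 colitic Tmem173iΔmye library thus lay above the untreated mean and 2 lay below it.

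**Figure D3:**
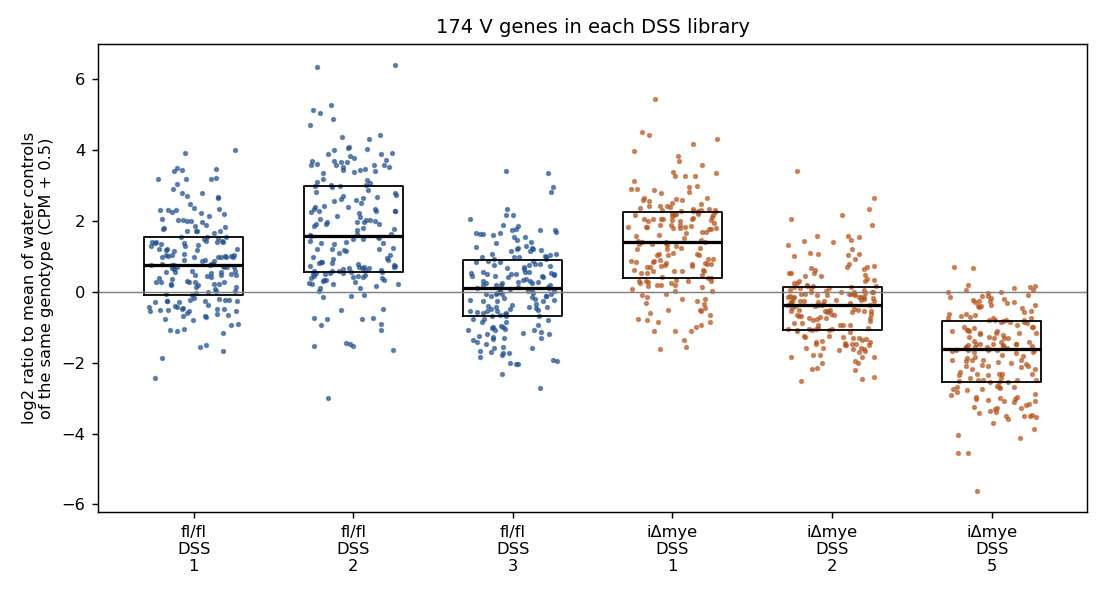
Log2 ratio of CPM + 0.5 of each of 174 V genes (points) to the mean of the untreated libraries of the same genotype, for each colitic library. Boxes give quartiles and median; the medians run from 1.59 in Tmem173fl/fl replicate 2 to -1.62 in Tmem173iΔmye replicate 5.

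The mixture of V genes was described by the effective number of genes (the exponential of the Shannon entropy) after thinning every library to 1034 Ighv and 1735 Igkv counts. For Ighv it was 35.5, 40.8 and 39.5 in untreated and 40.1, 37.1 and 37.6 in colitic Tmem173fl/fl mice, and 38.9, 39.3 and 34.5 in untreated and 37.3, 35.2 and 28.3 in colitic Tmem173iΔmye mice. For Igkv it was 28.1, 31.8 and 34.9 and then 36.8, 29.2 and 29.1 in Tmem173fl/fl mice, and 34.9, 38.5 and 33.0 and then 36.4, 36.9 and 16.3 in Tmem173iΔmye mice. Only colitic Tmem173iΔmye replicate 5 lay below all untreated libraries in both loci. There, Ighv14-4 held 25.9% of Ighv counts and Igkv4-59 39.3% of Igkv counts.

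Ighv1-81 was the leading heavy chain gene in 7 libraries and Ighv14-4 in 4. In colitic Tmem173fl/fl replicate 2 it was Ighv1-26 with 10.1%, and Igkv3-4 held 18% of the Igkv counts there. The use of Ighv genes overlapped by 65.2 to 72.5% between pairs of untreated libraries (median 67.2%) and by 42.2 to 71.7% between pairs of colitic ones (median 57.6%). For Igkv the overlaps were 54.8 to 71.0% (median 66.2%) and 39.0 to 67.2% (median 56.3%).

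**Figure D4:**
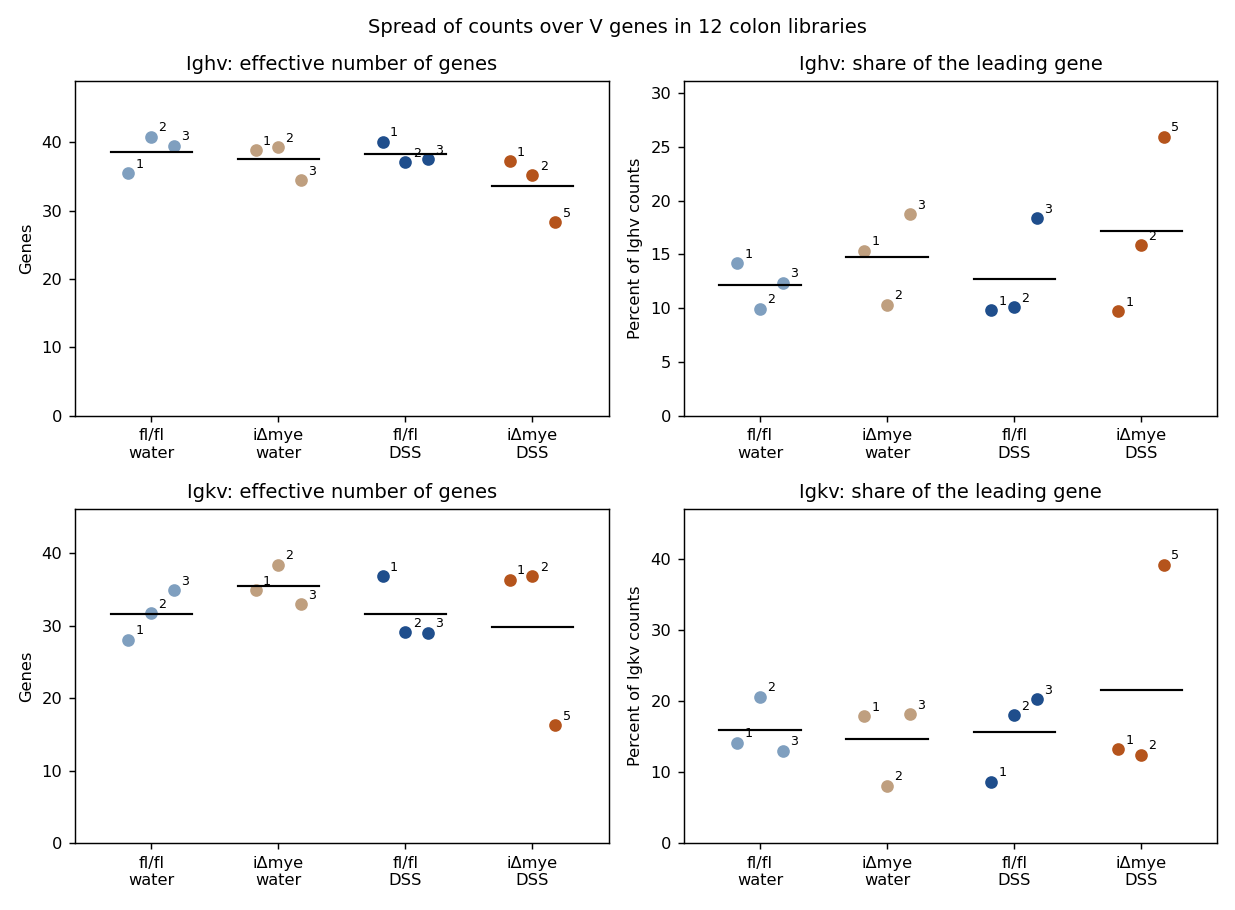
Left, effective number of Ighv and Igkv genes at equal depth, and right, percent of Ighv and Igkv counts taken by the leading gene, in each library by group (fl/fl or iΔmye, water or DSS), with replicate numbers and lines at the group means. Colitic Tmem173iΔmye replicate 5 has the lowest effective number in both loci (28.3 and 16.3) and the highest leading share (25.9 and 39.3%).

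V genes varied more between mice of a group than other genes at a like level. Within groups the median SD of log2(CPM + 0.5) over V genes was 0.72 and 0.61 in untreated Tmem173fl/fl and Tmem173iΔmye mice and 1.14 and 1.71 in the colitic groups. Other genes at a like level had 0.29, 0.28, 0.27 and 0.41. This spread limits what 3 mice per group can show for a V gene.

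In Tmem173iΔmye mice no member was called between colitic and untreated mice, where 2.08% of all genes were. At an unadjusted p under 0.05 there were 25 members (12.6%), against 15.6% of all genes: 19 were higher, against 9.42% of all genes, and 6 lower, against 6.14%. DESeq2 called 3 members at the call thresholds (1.52%), against 4.72% of all genes in that fit. The median log2 fold change of the members was 0.71 (0.69 with genes absent from a group set at their bound). Of 10 neutrophil genes 6 were called higher, where 2.08% of all genes were called. Of 18 B cell genes 8 had an unadjusted p under 0.05, all higher, against 9.42% of all genes. The part of these cells in the members' values was not tested. Ighg3 was at 3.58, 2.58 and 2.77 CPM in untreated and 131, 7.84 and 4.74 CPM in colitic Tmem173iΔmye mice, without overlap, at a log2 fold change of 4.0 (SE 1.07, edgeR adjusted p = 0.0967). Ighg2c was at 211, 268 and 79.7 CPM and at 2579, 235 and 166 CPM (2.42, adjusted p = 0.227). Ighg1 was at 3.10, 11.3 and 2.22 CPM and at 59.2, 6.66 and 1.09 CPM (2.01, adjusted p = 0.419). In these IgG genes replicate 1 was far above the untreated range, and the other two were near or within it. Without replicate 1 the log2 fold changes were 1.08 for Ighg3, 0.11 for Ighg2c, 0.10 for Ighg2b and -0.51 for Ighg1, none called. Without replicate 5 those of Ighg3, Ighg2c and Ighg2b were 4.58, 2.97 and 2.67, all called (edgeR adjusted p = 0.00539, 0.0291 and 0.0176). Ighg1 had 2.62 there and was not called (edgeR adjusted p = 0.0633).

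Igha was at 1415, 1488 and 1521 CPM in untreated and 4006, 814 and 412 CPM in colitic Tmem173iΔmye mice, a 9.74-fold range within the colitic group (log2 fold change 0.24, adjusted p = 0.898). Igkc was at 890, 1139 and 890.0 CPM and at 3983, 597 and 428 CPM (0.78, adjusted p = 0.633). Jchain was at 491, 541 and 426 CPM and at 893, 263 and 186 CPM (-0.12, adjusted p = 0.938). For all 3 genes replicate 1 was above and replicates 2 and 5 were below every untreated mouse.

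Without DSS, the genotypes were compared to see whether the deletion alone changed the antibody genes. No member and no gene of the 24102 was called. At an unadjusted p under 0.05 there were 59 members (29.8%), against 2.99% of all genes (720 genes). Of these 21 were higher in Tmem173iΔmye mice, against 1.76% of all genes, and 38 lower, against 1.23%. The genotypes did not overlap in 7 members (3.54%) that were higher and 15 (7.58%) that were lower. Over all 24102 genes these counts were 883 and 888. Within the untreated groups V genes had a median SD of 0.72 and 0.61, against 0.29 and 0.28 for other genes at a like level. The part of this spread in the unadjusted p was not tested. Of 18 B cell genes 10 had an unadjusted p under 0.05, all lower in Tmem173iΔmye mice, and 17 had a negative fold change (median -0.71), and their part in the members' values was not tested. DESeq2 called 1 member, a count not set against all genes of that fit. The median log2 fold change of the members was -0.31. Igkv6-20 had the smallest p of the members (-2.14, edgeR adjusted p = 0.120). Among constant genes Iglc3 (1.42), Ighd (-0.98), Ighg3 (-0.83), Igkc (-0.62) and Igha (-0.37) had unadjusted p under 0.05 and adjusted p of 1. All Igha values of untreated Tmem173iΔmye mice lay below all of those of untreated Tmem173fl/fl mice.

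Between the colitic groups, 2 members were called, both lower in Tmem173iΔmye mice, where 2.81% of all genes were called, 1.99% lower and 0.822% higher. Ighv6-3 was at 12.6, 31.5 and 15.3 CPM in colitic Tmem173fl/fl and 4.85, 2.30 and 1.28 CPM in colitic Tmem173iΔmye mice, without overlap (-2.83, SE 0.54, edgeR adjusted p = 0.0336). Ighv1-77 was at 2.17, 3.46 and 1.36 CPM and at 0.356, 0.622 and 0.182 CPM (-2.59, SE 0.57, adjusted p = 0.0496). Both calls were lost in some of the fits that left out 1 library. The median log2 fold change over the members was -1.35, and 41 had an unadjusted p under 0.05, against 20.2% of all genes. Of these 38 (19.2%) were lower, against 10.7% of all genes. None of the constant genes was called: Igha had -1.05 (adjusted p = 0.481), Igkc -0.81 (0.638), Ighg1 -2.32 (0.271), Ighg3 -2.47 (0.389), Ighg2c -1.14 (0.595) and Jchain -0.53 (0.668). The values of Igha and the IgG genes moved with single libraries. Those of Igha and Ighg1 stayed negative in every fit that left out 1 library (Ighg1 at -4.88 to -1.76). Without colitic Tmem173iΔmye replicate 1, 29 members (14.6%) were called, against 6.61% of all genes in that fit, and Igha had -2.59 (adjusted p = 0.0345), while without replicate 5 of that group Igha had -0.58 and without colitic Tmem173fl/fl replicate 2 it had -0.67, neither called. Without that Tmem173fl/fl replicate the IgG differences were 0.10 for Ighg3, 0.01 for Ighg2c, 0.06 for Ighg2b and -1.88 for Ighg1. Without Tmem173iΔmye replicate 1 they were -5.43, -3.48, -3.18 and -4.88 in the same order, of which Ighg1 was called (adjusted p = 0.0235). The 5 erythroid genes and 6 of the 10 neutrophil genes were called lower in colitic Tmem173iΔmye mice (23.8 to 29.0 and 210 to 330 CPM summed), and their part was not tested.

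The response to DSS itself was compared between genotypes with an interaction term over all 12 libraries. It was called for 2 members, against 2.55% of all genes: Pigr, described next, and Igkv14-111. Igkv14-111 was at 8.03, 4.13 and 4.45 CPM in untreated and 66.5, 71.1 and 29.8 CPM in colitic Tmem173fl/fl mice. In Tmem173iΔmye mice it was at 9.83, 16.4 and 6.13 CPM and then 18.1, 5.6 and 2.98 CPM. It was thus above the untreated range in every colitic Tmem173fl/fl mouse, while in the other genotype colitic replicate 1 lay above and replicates 2 and 5 below it (interaction -3.62, SE 0.80, edgeR adjusted p = 0.0318). The call was lost with limma on log2(FPKM + 0.1), without the libraries with Xist, without those with pancreas RNA and in 8 of the 12 fits that left out 1 library. None of its 50-base windows occurred in another immunoglobulin gene. The interaction of Igha was -0.67 (adjusted p = 0.720) and that of Iglc3 -2.60 (adjusted p = 0.0694).

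Pigr was the only member called lower in colitic Tmem173fl/fl mice. Pigr lies at chr1:130826684-130852249 on the plus strand and its level was 4395, 4596 and 4380 CPM in untreated and 1275, 1275 and 1626 CPM in colitic Tmem173fl/fl mice. The untreated mean of 4457 ± 121 CPM (SD, n = 3) was 3.20 times the colitic mean of 1392 ± 202 CPM, with little spread in either group (log2 fold change -1.61, SE 0.16, edgeR adjusted p = 4.46e-05). In Tmem173iΔmye mice Pigr was at 4416, 3351 and 3847 CPM without and 2194, 4078 and 4659 CPM with DSS. There replicate 1 lay below all untreated mice and replicates 2 and 5 lay within or above their range (-0.09, SE 0.28, adjusted p = 0.914).

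All colitic Tmem173iΔmye mice had more Pigr RNA than any colitic Tmem173fl/fl mouse. The difference between the colitic groups was 1.38 on the log2 scale (SE 0.31, adjusted p = 0.0538), just short of the call. The difference between the genotypes' responses to DSS was called (interaction 1.59, SE 0.34, adjusted p = 0.0265), and the call was lost (not the direction) when most single libraries were left out. Without DSS the genotypes differed in Pigr by -0.20 (adjusted p = 1). The colitic Tmem173iΔmye library with the lowest Pigr, replicate 1, was also the one with the highest Igha, Igkc and IgG levels of its group, and replicate 5, with the highest Pigr, had the lowest Igha.

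**Figure D5:**
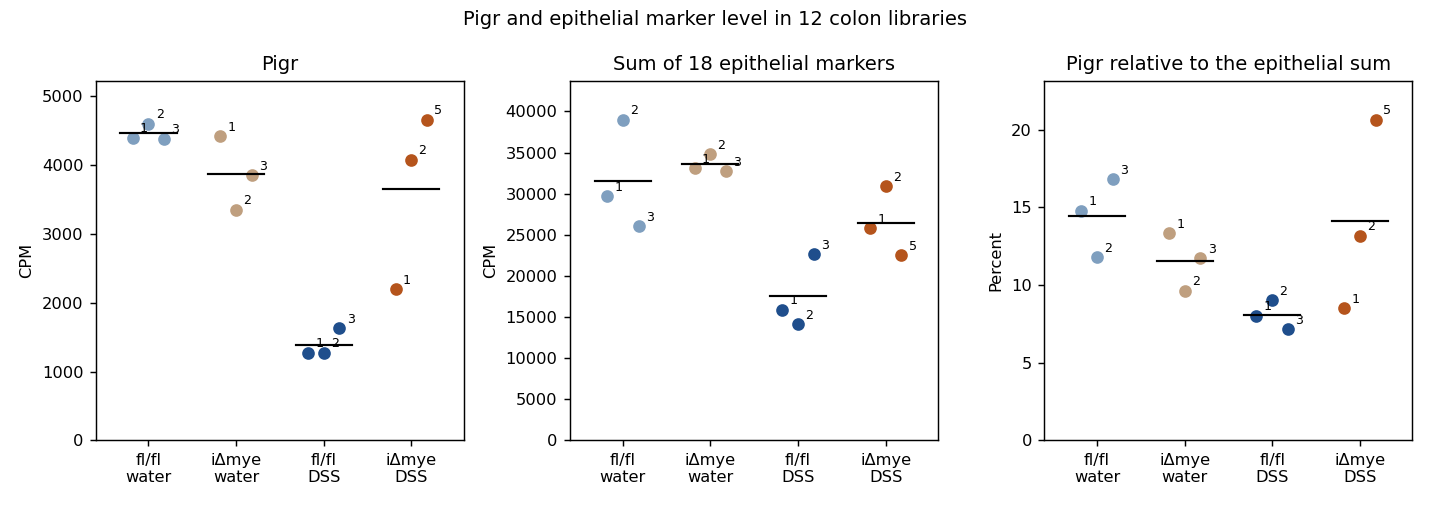
Left to right, CPM of Pigr, summed CPM of 18 epithelial markers, and Pigr as a percentage of that sum, in each library by group (fl/fl or iΔmye, water or DSS), with replicate numbers and lines at the group means. Pigr lies between 1275 and 1626 CPM in the 3 colitic Tmem173fl/fl libraries, below all other libraries.

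Most epithelial genes had a fold change of the same sign as Pigr. Of 18 markers of colonic epithelial cells, 8 were called lower and 1 higher in colitic Tmem173fl/fl mice, where 7.61% and 14.9% of all genes were (median log2 fold change -0.96), among them the chloride exchanger Slc26a3 (-2.73) and the water channel Aqp8 (-2.47), with the carbonic anhydrase Car1 called higher (1.63). Their summed level was 26060 to 39010 CPM in untreated and 14130 to 22670 CPM in colitic Tmem173fl/fl mice, and 32750 to 34780 and 22550 to 30920 CPM in Tmem173iΔmye mice, and the part of the epithelial content in the fall of Pigr was not tested. Only 2 of the 18 fell by more than Pigr. Between the colitic genotypes 16 of the 18 were positive. For 11 every Tmem173iΔmye library lay above every Tmem173fl/fl one, as it did for 2886 of the 24102 genes. At an unadjusted p under 0.05 there were 12, against 20.2% of all genes, and 2 were called, against 2.81%. In the interaction 16 were positive (median 0.73) and 3 were called, all higher, against 2.55% of all genes called. Of the 18, 1 had a larger value there than Pigr. Their part in these differences of Pigr was not tested. Relative to their sum, Pigr was at 14.8, 11.8 and 16.8% in untreated and 8.03, 9.02 and 7.17% in colitic Tmem173fl/fl mice, still without overlap. In Tmem173iΔmye mice it was at 13.3, 9.64 and 11.8% and at 8.5, 13.2 and 20.7%.

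The sequence before Pigr is shown because Pigr is the member that fell with colitis. The 250 bases that end just before its annotated first base (RefSeq, GRCm38.p6, chr1:130826434-130826683, plus strand) hold an E-box, CACGTG, in capitals.
Pigr promoter: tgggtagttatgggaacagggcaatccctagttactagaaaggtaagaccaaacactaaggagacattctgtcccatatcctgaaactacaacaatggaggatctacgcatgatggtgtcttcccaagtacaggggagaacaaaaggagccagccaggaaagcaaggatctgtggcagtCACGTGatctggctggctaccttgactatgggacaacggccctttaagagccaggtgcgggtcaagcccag
CACGTG, which reads the same on both strands, occurred in 6.02% of 32851 RefSeq promoters of the same reach. ATGCAAAT (the octamer of immunoglobulin promoters, in 1.60% of promoters) and TATAAA (in 12.4%) were searched on both strands, and these letters were not found in the Pigr window. A motif of the interferon response element (in 2.98% of promoters) and a motif of the NF-κB site (in 0.140%) were searched too, without a match. A match is a description of the sequence only.

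Genes known to induce Pigr were counted in the same way. In colitic Tmem173fl/fl mice, of 18 cytokine, receptor and transcription factor genes of this list, 1 was called higher, Il1b (2.93), beside 14.9% of all genes, and 4 lower, beside 7.61%, among them Ifng (-2.65), Il17rc (-1.49) and Irf1 (-1.30); 5 of 18 called is near the 22.5% of all genes.

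Genes that bring IgA plasma cells to the gut changed in both directions. Ccl28, the epithelial chemokine that attracts IgA plasma cells, was at 159, 147 and 223 CPM in untreated and 38.0, 31.5 and 38.8 CPM in colitic Tmem173fl/fl mice (log2 fold change -2.22). It was at 135, 139 and 124 CPM and at 75.5, 155 and 278 CPM in Tmem173iΔmye mice. Like Pigr, it was thus low in every colitic Tmem173fl/fl mouse and at various levels in colitic Tmem173iΔmye mice (interaction 2.64, edgeR adjusted p = 0.0126). Madcam1, the vascular address for gut homing lymphocytes, was at 4.01, 2.78 and 2.76 CPM and at 23.8, 23.8 and 14.6 CPM in Tmem173fl/fl mice (2.78). In colitic Tmem173iΔmye mice it was at 22.1, 6.47 and 7.22 CPM. Of 19 genes of IgA induction and homing, 9 were called in colitic Tmem173fl/fl mice, beside 22.5% of all genes: 7 higher, with Nos2 (2.90) and Tgfb1 (1.79) among them, and 2 lower, Ccl28 and Tnfsf13 (-1.42), which encodes the plasma cell survival factor APRIL. Il6, a cytokine of plasma cell differentiation, was at most 0.125 CPM in untreated mice of both genotypes, at 38.9, 9.8 and 23.4 CPM in colitic Tmem173fl/fl mice and at 5.42, 4.67 and 4.01 CPM in colitic Tmem173iΔmye mice, without overlap between the colitic groups, and was called lower in the latter (-2.36).

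Receptors of antibodies changed in both directions in colitic Tmem173fl/fl mice. Of 14 receptor and transport genes tested, 10 were called, beside 22.5% of all genes: 6 higher, all receptors of IgG or IgE or their signalling chain: Fcer1a (2.93), Fcgr3 (2.90), Fcgr4 (2.16), Fcgr2b (2.01), Fcer1g (1.61) and the neonatal receptor Fcgrt (1.39). The 4 called lower were Fcamr, a receptor of IgA and IgM (-2.01), Tfrc and Lgals3, which can bind IgA and IgE, and Trim21, a cytosolic antibody receptor. Fcamr was at 9.01, 14.9 and 9.14 CPM in untreated and 2.87, 2.23 and 2.72 CPM in colitic Tmem173fl/fl mice, and at 7.20, 6.78 and 8.74 CPM in colitic Tmem173iΔmye mice, which was higher than in colitic Tmem173fl/fl mice (1.53). In Tmem173iΔmye mice Fcgr3 (1.48) and Fcgr2b (1.35) were also called higher with colitis.

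Markers of the cells that make antibodies moved with the immunoglobulin genes only in part. Of 18 plasma cell genes 4 were called in colitic Tmem173fl/fl mice, a share near the 22.5% of all genes called there. All 4 were higher: Derl3 (2.12), Pou2af1 (1.84), Mzb1 (1.67) and Sdc1 (1.13). Over the 18 genes, 12 had a positive and 6 a negative fold change, where 51.1% of all genes were positive. In Tmem173iΔmye mice 10 were positive and 8 negative with colitis, where 12441 of the 24102 genes were positive. Mzb1, a chaperone of antibody assembly, was at 19.7, 10 and 11.3 CPM in untreated and 26.4, 79.4 and 18.1 CPM in colitic Tmem173fl/fl mice, and at 45.1, 8.21 and 6.13 CPM in colitic Tmem173iΔmye mice. The order of the libraries in Mzb1, 1 of the 18 genes, was that of the Igha level in each colitic group. The plasma cell genes summed to 1438 to 1610 CPM in untreated and 1638 to 2359 CPM in colitic Tmem173fl/fl mice, and to 1458 to 1622 and 1083 to 1841 CPM in Tmem173iΔmye mice. Sdc1, which epithelial cells also express, was at -1.30 on the log2 scale in colitic Tmem173iΔmye mice relative to the other colitic genotype, which was called.

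Of 18 B cell genes 1 was called higher in colitic Tmem173fl/fl mice, Ebf1 (1.57), and 1 lower, Cd74 (-1.46), which other antigen-presenting cells also express, a smaller share than that of all genes. The B cell genes summed to 2084 to 2472 CPM in untreated and 533 to 1467 CPM in colitic Tmem173fl/fl mice, without overlap, although 14 of the 18 genes had a positive fold change (median 0.34): the sum is weighted by the abundant genes of the list. In Tmem173iΔmye mice they summed to 1094 to 2373 CPM and then 1384 to 2825 CPM. There 17 of the 18 genes had a positive fold change with colitis (median 1.32). At an unadjusted p under 0.05 there were 8, all higher, against 9.42% of all genes, and 0 were called. Of 13 genes of lymphoid follicles tested, 3 were called higher, Cxcl13 (4.50), S1pr2 (1.82) and Bcl6 (1.14), and 1 lower, Cr2 (-1.45), beside 14.9% and 7.61% of all genes. The follicle genes summed to 84.3 to 98.1 CPM in untreated and 246 to 547 CPM in colitic Tmem173fl/fl mice, and to 66.6 to 76.3 and 130 to 331 CPM in Tmem173iΔmye mice. The part of lymphoid tissue in the differences between libraries was not tested.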

How the data were processed

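Total RNA of whole colon (TRIzol) was made into polyA libraries with a NEBNext Ultra kit, which does not mark strand, and sequenced, with 1 library for each of 12 mice. Per the submitters' processing notes, the authors used CASAVA 1.8, fastp, HISAT2 2.0.5, featureCounts 1.5.0-p3 and DESeq2 1.20.0 with GRCm38 (mm10). Since strand was not recorded, reads of a gene and of an overlapping antisense gene cannot be told apart. The deposited table holds raw counts per gene that the authors assigned with featureCounts, and FPKM values that the authors scaled from them by gene length and depth. Group means and the authors' own fold changes and p-values, also deposited, were not used.

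Counts were tested with edgeR 4.0.16 (R 4.3.3, quasi-likelihood, TMM scaling) in each pair of groups, and over all 12 libraries for the interaction. Genes with at least 0.1 FPKM in at least 3 libraries entered (24102 of 54532 rows), and p-values were adjusted by Benjamini-Hochberg over all of them. Genes were called where the adjusted p was below 0.05 and the log2 fold change 1 or more in size. Alternatives were DESeq2 1.42.0, limma 3.58.1 on log2(FPKM + 0.1) and log2(FPKM + 1), other scalings, filters, thresholds and designs, a replicate block, and libraries left out. Depth ranged from 13823237 to 18718915 counts, which with 3 mice per group limits precision; counts lack molecular identifiers, so floors of 3 counts cover counting error only. Sequences came from GRCm38 with GENCODE annotation (all 199 members matched by gene identifier) and the Pigr promoter from RefSeq GRCm38.p6. Figures were drawn with matplotlib 3.10.9.

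The steps were tested on simulated counts. Named were every constant gene, Jchain and Pigr, the 3 most abundant V genes of each locus, up to 5 called V genes with the largest rise and fall in each comparison, and called genes of the other lists. Igkv6-20 and the J segments were named after their values were seen. Members and lists were chosen with earlier results of these data known. Values of 2 genes of the other lists are not reported here.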

Additional observations from a re-analysis of the deposited data

Results flagged for a closer look

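The response to DSS differed between the genotypes, by the interaction term over all 12 libraries in edgeR, in 2 of 198 members (1.01%), a smaller share than the 2.55% of all genes. For Pigr the interaction was 1.59 on the log2 scale (adjusted p = 0.0265): the fold change with DSS was -1.61 in Tmem173fl/fl and -0.09 in Tmem173iΔmye mice. For Igkv14-111 it was -3.62 (adjusted p = 0.0318), with a rise of 3.41 in Tmem173fl/fl mice (adjusted p = 8.08e-05). With 1 library left out, the call was lost in 9 of 12 fits for Pigr and in 8 of 12 for Igkv14-111, and both were lost without the libraries with Xist, without those with pancreas RNA (where none of the 24102 genes was called) and with limma on log2(FPKM + 0.1). Groups of 3 libraries are too small to examine for single far values.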

How the results depend on the processing

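The main counts of called members were 76 for colitis in Tmem173fl/fl mice, 0 for colitis in Tmem173iΔmye mice, 0 between untreated genotypes, 2 between colitic genotypes and 2 for the interaction. A count given below without a share of all genes is not read against other genes. At an unadjusted p under 0.05 and any fold, members made 12.6% against 15.6% of all genes for colitis in Tmem173iΔmye mice. They made 29.8% against 2.99% between untreated and 20.7% against 20.2% between colitic genotypes. For the interaction they made 14.1%, where 4361 of the 24102 genes had such a p. For colitis in Tmem173fl/fl mice the count was 120 with no filter on low values (60.3% of members, against 18.4% of all genes in that fit). It was 36 in one fit of all 4 groups (18.2%, against 21.3%). With limma on log2(FPKM + 0.1) and log2(FPKM + 1) it was 23 and 29 (11.6% against 21.2%, and 14.6% against 11.8%). With 1 library left out it was 44 to 114. The 44 came without untreated replicate 3, which is also the fit without libraries with Xist (22.2%, against 20.2%). The 114 came without colitic replicate 3 (57.6%, against 23.1%). For colitis in Tmem173iΔmye mice it was 3 with DESeq2 (1.52%, against 4.72% of all genes) and 14 with no filter (7.04%, against 3.29%). It was 25 at an unadjusted p, 4 without the libraries with Xist and 0 to 18 with 1 library left out (18 without colitic replicate 5). Between untreated genotypes it was 1 with DESeq2, 26 with no filter and 0 to 3 with 1 library left out. At an unadjusted p it was 43 with the fold threshold kept, and 59 at any fold. Between colitic genotypes it was 14 with DESeq2, 1 with RLE scaling and 1 with scaling made without the members, 18 with no filter, 19 in one fit of all 4 groups, 41 at an unadjusted p, 0 with both limma fits, 0 without the libraries with Xist, 0 without those with pancreas RNA over 1000 CPM (where no gene at all was called), and 0 to 29 with 1 library left out (29 without colitic Tmem173iΔmye replicate 1). For the interaction it was 5 with DESeq2, 19 with no filter, 28 at an unadjusted p, 0 with limma on log2(FPKM + 0.1), 0 without the libraries with Xist, 0 without those with pancreas RNA (again no gene at all) and 0 to 36 with 1 library left out (36 without colitic Tmem173iΔmye replicate 1, 18.2% against 7.17% of all genes).

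Same-numbered samples correlated by -0.17 to 0.20 in their deviations from the group means, so they were not treated as pairs. The block used only numbers shared by the groups, so that replicates 3 and 5 dropped out of every fit with colitic Tmem173iΔmye mice. Only replicates 1 and 2 of each group stayed in those fits. The numbers do not mark pairs, so the block counts show how the fit moved and are not read further. With the replicate block the count was 72 for colitis in Tmem173fl/fl mice (36.4%, against 20.5% of all genes), 29 for colitis in Tmem173iΔmye mice (14.6%, against 5.39%; Ighg3 was called at 3.54), 30 between untreated genotypes (15.2%, against 0.39%), 2 between colitic genotypes (1.01%, against 0.419%) and 4 for the interaction (2.02%, against 0.963%), where Pigr was no longer called (1.45, adjusted p = 0.123).

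Pigr was called lower in colitic Tmem173fl/fl mice under all 14 distinct alternatives, at -1.76 to -1.39. Its interaction ranged from 1.35 to 1.85 and lost its call with limma on log2(FPKM + 0.1) (adjusted p = 0.0769), without the libraries with Xist (0.148) or with pancreas RNA (0.191, a set chosen after the data were seen), and in 9 of 12 fits that left out 1 library. Between colitic genotypes Pigr was called by DESeq2 (adjusted p = 0.000226), in one fit of all 4 groups (0.00361) and without colitic Tmem173iΔmye replicate 1 (0.0179). Ighd in Tmem173fl/fl mice reversed to -1.53 without the libraries with pancreas RNA, which left 1 colitic library; the cause was not tested. In Tmem173fl/fl mice Ighg3 was not called with limma on log2(FPKM + 0.1) or log2(FPKM + 1) (adjusted p = 0.0545 in both), nor Ighg2b on log2(FPKM + 0.1) (0.0561). Of 1120 alternative values of the constant genes, Jchain and Pigr, 1075 kept direction and side of the threshold, or stayed uncalled. Among those that stayed uncalled, 79 changed sign. Some fits, such as that without untreated Tmem173fl/fl replicate 3, were counted under more than 1 name.

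Without the 3 most abundant members the immunoglobulin share was 0.138% and 0.118% in untreated Tmem173fl/fl and Tmem173iΔmye mice, and 0.602% and 0.228% with colitis. By FPKM the Igha share was 73.4% and 71.3% in untreated Tmem173fl/fl and Tmem173iΔmye mice, and 44.4% and 43.7% with colitis. The inverse Simpson index was 24.9, 22.4, 24.0 and 19.0 for Ighv and 17.9, 21.4, 19.0 and 16.6 for Igkv, in the order untreated Tmem173fl/fl and Tmem173iΔmye mice, then the same genotypes with colitis. Depth limits V genes of few counts, and 3 mice per group limit all comparisons.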
